A study of Pseudotsuga menziesii with 83 samples.

Results

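The transcriptome of mature Douglas-fir needles on 6 May was compared with that of the same trees on 7 April of the same spring. The comparison took every library of these dates in the deposited count table, 24 of its 47 columns, and paired each May library with the April library of its own tree, so that 12 trees gave 12 differences. The libraries belong to a study of the passage of needles from dormancy to growth, for which 83 libraries are labelled in all, and dates other than 10 March, 7 April, 6 May and 17 June were not analysed here.

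The 6 May group held 12 libraries, 11 labelled post-budbreak and 1 labelled pre-budbreak (tree 10). The 7 April group held 12 libraries, 3 labelled post-budbreak (trees 44, 46 and 89) and 9 labelled pre-budbreak. All trees had been raised from seed of known origin and stood in 1 nursery in southern Oregon, so they shared soil and weather while differing in origin. They came from 3 seed sources with 4 trees each: ORSI (called Oregon here, trees 44, 46, 89 and 90), WACA (Cascades, trees 05, 08, 38 and 39) and WACS (Coast, trees 10, 12, 68 and 69). Each seed source was represented by 2 half-sib families with 2 trees each, so that the 12 trees came from 6 families. Needles of the preceding year's growth were taken from several branches of each tree near midday on both dates, and strand-specific mRNA libraries were sequenced. All May libraries ran on flowcell fc1025. The April libraries of trees 05, 08, 10, 12, 44 and 46 ran on fc1025 too and those of the other 6 trees on fc1022, and no lane held libraries of both dates, so that date and lane cannot be told apart.

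Douglas-fir keeps its needles for several years, and a needle formed in one summer passes through winter hardening and then regains full photosynthetic activity in spring. In temperate conifers, buds that have met their chilling requirement burst as temperature accumulates, while lengthening days are among the cues that time seasonal gene expression. Needles that already exist when the buds open are the main source of carbon for the new shoots.

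The table gives each feature, a transcript model of the reference, as a number such as gene10100. The deposited files do not pair these numbers with gene names, so no member could be assigned a function and the needle label could not be checked against marker genes. The totals of the 24 libraries were nearly equal, from 11293737 to 11301459 counts. They had been equalised before deposit, and the original sequencing depth is not visible in them. The paper's supplement lists the reads of each library, which differed between dates within trees. These read numbers were not used here. Of 90662 features, 82262 had at least 1 count in these libraries, and the 29314 (32.3%) with a median count over 5 were tested. These held 99.1% to 99.6% of the counts of each library.

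A large part of the tested transcriptome differed between the dates. In total, 12123 features passed the test (41.4% of those tested), of which 6116 were higher on 6 May (20.9%) and 6007 were lower (20.5%). The test was edgeR's quasi-likelihood test with the tree as a block, TMM scaling and an adjusted p (Benjamini-Hochberg) of at most 0.01. TMM is a scaling that sets the bulk of features to no change. Risers and fallers were nearly equal in number with TMM and with median-of-ratios scaling (6321 up and 5880 down). With the deposited totals and no further scaling, the median log2 change of all features was -0.26 in place of 0.01, and 2470 features rose while 9024 fell, so that risers made up 21.5% of the called features in place of 50.4%. All log2 changes below are on the TMM scale unless stated. The p-values measure the change between the dates against its spread from tree to tree, and some of the trees are half-sibs.

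Called falls were larger than called rises in the median. The median rise was 0.68 on the log2 scale (1.60-fold), with single features between 0.24 and 4.06, and the median fall was -0.85 (1.81-fold), with single features between -0.23 and -4.48. At least 2-fold changes were seen in 1279 of the risers (20.9%) and in 2293 of the fallers (38.2%). At least 4-fold changes were seen in 123 risers and 272 fallers, and at least 8-fold changes in 10 risers and 44 fallers. Of the risers, 2827 (46.2%) were higher in May in all 12 trees, and 3098 of the fallers (51.6%) were lower in all 12. The May and April libraries did not overlap at all in 2.60% of the tested features, of which 175 had every May library above every April library and 588 had every April library above every May library.

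The direction of change went with abundance. Among the 1527 features with a mean of 100 CPM (the usual depth-scaled count, here over TMM-adjusted totals) or more, 584 rose and 210 fell, whereas among the 3762 features under 1 CPM, 222 rose and 619 fell. The classes between them held 2245 risers and 3145 fallers of 14237 features (1 to 10 CPM) and 3065 risers and 2033 fallers of 9788 features (10 to 100 CPM). The excess of risers in the upper classes turned into an excess of fallers under another scaling. With the deposited totals, 308 features of 100 CPM or more rose and 384 fell, and 1241 rose and 3145 fell between 10 and 100 CPM. In the share that rose, the order of the classes was the same under both scalings. It increased with each class from 5.90% to 15.8%, 31.3% and 38.2% with TMM and from 2.39% to 5.84%, 12.7% and 20.2% with the deposited totals. The share that fell had no such order, with 16.5%, 22.1%, 20.8% and 13.8% (TMM) and 25.7%, 31.8%, 32.1% and 25.1% (deposited totals). The share called in either direction was also lower in the rarer classes, at 22.4%, 37.9%, 52.1% and 52.0% with TMM. In raw shares, features of 100 CPM or more held 65.1% ± 3.33 of the counts on 6 May and 60.2% ± 3.42 on 7 April (SD, n = 12 each), with the May share higher in 11 trees.

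**Figure D1:**
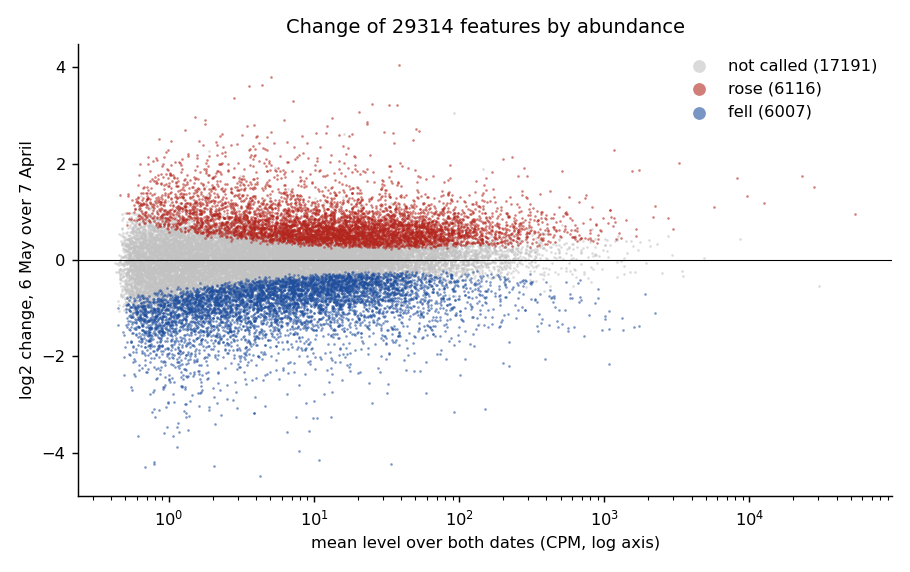
Log2 change of 6 May over 7 April for each of the 29314 tested features (points) against its mean level over both dates (CPM, log axis), with the 6116 risers in red, the 6007 fallers in blue and features not called in grey. Points below 0 reach -4.48 and points above 0 reach 4.06, and the most abundant features lie mostly above 0.

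Named features were those with the largest rises and falls among the 4333 called features that had a mean count of at least 50 and the same sign in all 12 trees. Feature gene10781 had 0.294 CPM in its lowest, 6.14 CPM in its median and 36.8 CPM in its highest May library, against 0, 0.434 and 2.28 CPM in its lowest, median and highest April library. Its May levels were highest in trees 46 (36.8 CPM), 08 (21.0 CPM) and 44 (17.4 CPM), and the groups overlapped, with trees 05, 38 and 89 under 1 CPM in May although each was at 0 in April. It rose by 3.80 ± 0.22 on the log2 scale (SE, 13.9-fold, edgeR adjusted p = 2.21e-09). The changes of single trees lay between 1.32 and 4.64, with a mean of 2.94 ± 1.06 (SD). April counts lay between 0 and 26 and the lowest May count was 3, so the fold rests on low April counts.

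Feature gene32760 had 0.502, 4.94 and 41.8 CPM in its lowest, median and highest May library, against 0, 0.762 and 3.32 CPM in its lowest, median and highest April library. May levels of this feature varied widely within the Cascades and within the Oregon trees. Trees 05 and 08, both from the Cascades, had 41.8 CPM and 2.77 CPM in May, and the Oregon trees spanned 2.48 to 36.2 CPM, so the groups overlapped although every tree was higher in May. The rise was 3.31 ± 0.32 (SE, 9.91-fold, edgeR adjusted p = 3.53e-07), and the changes of single trees lay between 1.23 and 5.39. They were 3.38 to 4.23 in Oregon, 1.44 to 2.57 in Coast and 1.23 to 5.39 in Cascades trees. The change was not called different between seed sources (edgeR adjusted p = 0.858). Here too the April counts were low, between 0 and 37, and the lowest May count was 5.

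The named fallers were more even across trees. Feature gene38251 had 0, 0.302 and 0.804 CPM in its lowest, median and highest May library, against 3.69, 7.40 and 13.4 CPM in its lowest, median and highest April library. Every April library was above every May library, and the May counts did not exceed 8 in any library, against 47 to 195 in April. It fell by 4.48 ± 0.22 on the log2 scale (SE, 22.3-fold, edgeR adjusted p = 8.56e-10).

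Feature gene10100 was abundant in April and scarce in May. It had 1.32, 2.99 and 6.33 CPM in its lowest, median and highest May library, against 27.0, 56.9 and 136 CPM in its lowest, median and highest April library. The groups did not overlap, and the highest April levels belonged to Coast trees 69 (136 CPM) and 10 (131 CPM), which were not among the highest in May (2.81 CPM and 4.03 CPM). It fell by 4.23 ± 0.20 on the log2 scale (SE, 18.7-fold, edgeR adjusted p = 8.55e-10).

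**Figure D2:**
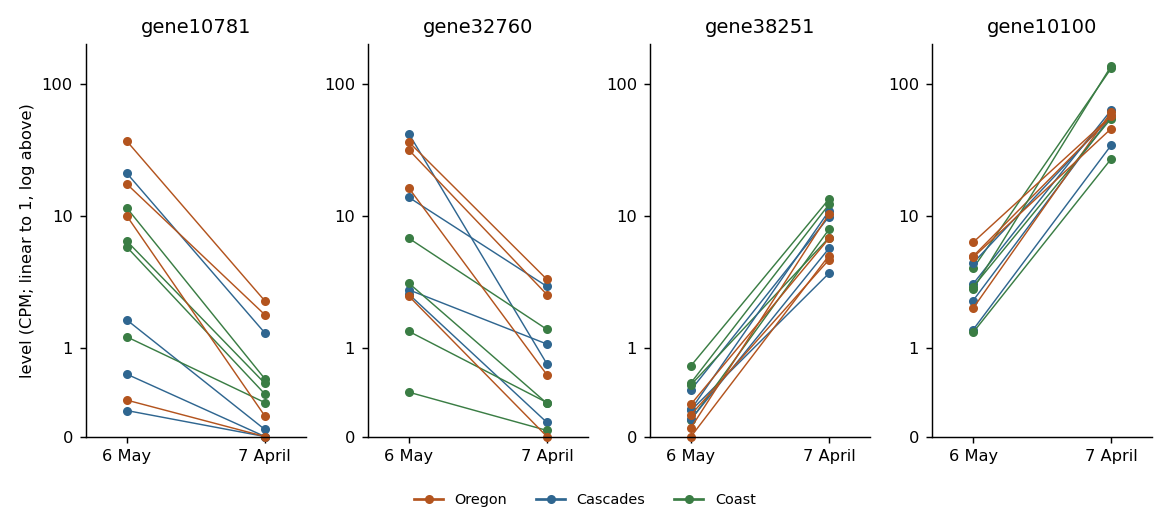
Level (CPM, axis linear up to 1 and logarithmic above) of the 4 named features in each library, with 6 May left and 7 April right, lines joining the libraries of 1 tree and colours for seed sources. The risers gene10781 and gene32760 overlap between dates (April up to 2.28 and 3.32 CPM), while in gene38251 and gene10100 every May point lies below every April point.

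The libraries of 10 March and 17 June, which did not enter the test, were used to place the change in the season. They exist for 11 trees on all 4 dates (tree 38 has no March library here). All June libraries ran on fc1025, and 6 of the March libraries on fc1022, in lanes of their own. In these trees gene38251 had a median of 1.45 CPM on 10 March, 7.84 CPM on 7 April, 0.304 CPM on 6 May and 0.200 CPM on 17 June, so that its April level stood above the levels before and after. Feature gene10100 had a median of 51.9 CPM in March, 56.3 CPM in April, 2.88 CPM in May and 4.67 CPM in June. It was higher in June than in May in 8 of the 11 trees, for example with 10.2 CPM in June and 2.27 CPM in May in tree 05, and higher in April than in March in 5. The medians of gene10781 were 0.365, 0.477, 6.38 and 21.4 CPM on the successive dates, with June above May in 7 of the 11 trees. In gene32760 the medians were 0.179, 0.692, 3.07 and 5.23 CPM, but the level was lower in June than in May in 8 of the 11 trees, and its mean was 8.25 CPM in June and 13.1 CPM in May.

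The level of the called features was then followed over the 4 dates. For each tree, the features that had passed the test in a fit without that tree were read in its own 4 libraries, and their mean log2 difference from March was taken over risers and, with the sign turned, over fallers. On 7 April this index was -0.05 ± 0.12 over the 11 trees (SD, -0.25 to 0.12). On 6 May it was 0.74 ± 0.12 (0.56 to 0.89), and on 17 June it was 0.62 ± 0.10 (0.40 to 0.76). Fallers had a wider spread than risers on 7 April, with 0.37, 0.34 and 0.19 above March in trees 90, 46 and 10. The lists were chosen for a change between April and May in other trees, so the size of that step relative to the others is set in part by the choice, and so is a return between May and June. No lists chosen on another step were read here.

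**Figure D3:**
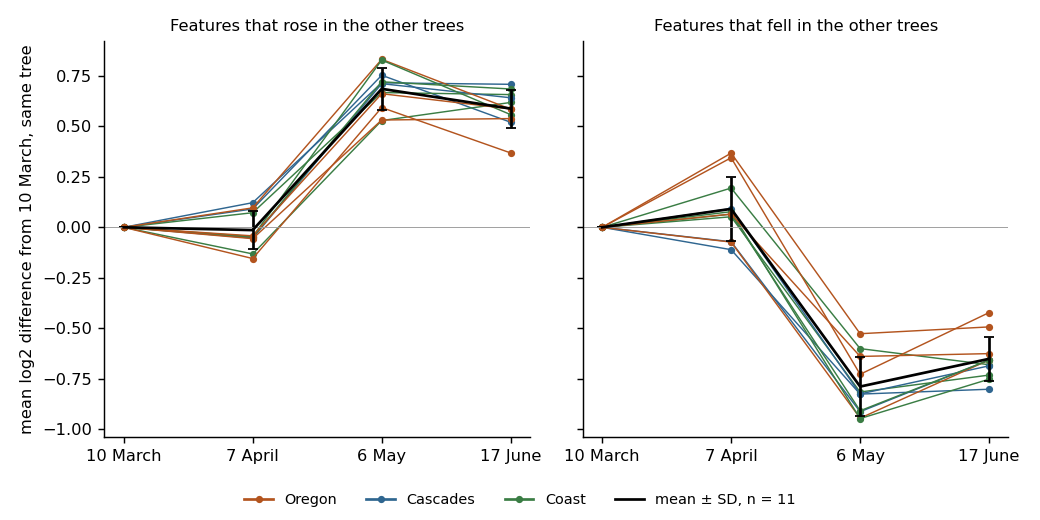
Mean log2 difference from 10 March of the same tree on 4 dates, for features that rose (left) or fell (right) in the other trees, with thin lines for the 11 trees coloured by seed source and the black line for the mean ± SD. On 7 April the risers lie between -0.15 and 0.12 and the fallers between -0.11 and 0.37, and on 17 June all risers lie above 0 and all fallers below 0.

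June and March libraries also gave a comparison with no library in common with the one above. In 11 trees, 17 June differed from 10 March in 11851 features (40.4% of 29357 tested), with 5523 higher in June (18.8%) and 6328 lower (21.6%). Of the May risers, 53.9% rose and 2.30% fell in June against March, while over all features tested on both occasions 19.1% rose and 21.8% fell. Of the May fallers, 58.3% fell and 2.01% rose. The 3260 features that rose in both comparisons were 53.3% of the May risers and 59.0% of the June risers, and the 3370 that fell in both were 56.1% of the May fallers and 53.3% of the June fallers. The median June-minus-March difference was 0.52 for the May risers and -0.58 for the May fallers.

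Some called features also differed between March and April. Of the fallers, 280 (4.66%) had been at least 2-fold higher in April than in March, as in gene38251, and 56 (0.932%) at least 2-fold lower, whereas 46 (0.752%) of the risers were at least 2-fold higher and 106 (1.73%) at least 2-fold lower in April than in March. Over all tested features these shares were 1.84% and 1.25%. April levels chose both lists, so these shares are a description.

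Each of the 12 trees showed the change. In a tree left out of the fit, the features called in the other 11 trees had mean log2 changes of 0.59 to 0.87 for risers and -0.71 to -1.07 for fallers. Between 74.4% and 95.3% of the risers were higher in May and between 76.2% and 95.9% of the fallers were lower, while over all features 48.5% to 52.4% were higher. The size of the change, taken as the mean of rise and fall, was largest in Coast tree 68 (0.92), Oregon tree 46 (0.91) and Coast tree 69 (0.90), and smallest in Cascades tree 05 (0.66) and Oregon tree 89 (0.65). The same features held 41.7% to 53.2% of a library's counts (risers) and 6.34% to 13.4% (fallers) on 6 May, against 26.2% to 38.98% and 15.2% to 21.2% on 7 April. Neither range overlapped between the dates.

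**Figure D4:**
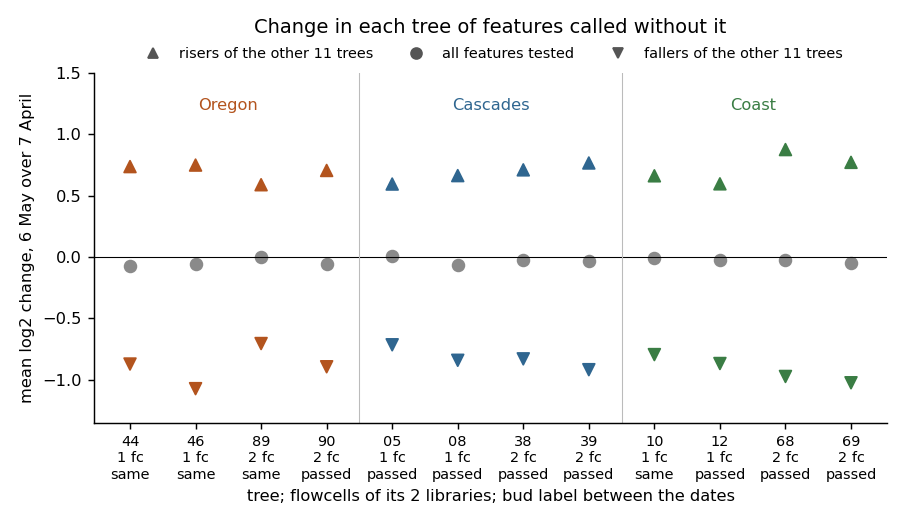
Mean log2 change of 6 May over 7 April in each of the 12 trees for the risers (upward triangles) and fallers (downward triangles) called in the other 11 trees and for all tested features (grey circles), with trees grouped by seed source and labelled with the flowcells of their libraries (1 fc or 2 fc) and with whether the bud label passed budbreak or was the same on both dates. Risers lie between 0.59 and 0.87 and fallers between -0.71 and -1.07 in every tree, while the grey circles stay near 0.

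Tree 89 stood somewhat apart from the other trees. Its changes correlated least with those of the other 11 (mean Pearson's r across features 0.38, against 0.44 to 0.56 for the other trees, with the 66 pairs spanning 0.25 to 0.68), and it had the smallest shares of risers up and fallers down. At least 2-fold differences were most frequent in it, with 14.3% of features up and 15.2% down. Without tree 89 the test called 12927 features in place of 12123. The correlations are across features of libraries scaled together and describe likeness only. The median r was 0.50 in the 6 sib pairs, all of which differ in flowcell pairing, and 0.54 in the 48 pairs from different seed sources, which mix both kinds of pair. This difference was not tested.

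The change was next compared between seed sources. With each seed source fitted alone, on 4 trees, 1490 features passed in Oregon trees (5.07%), with 710 up (2.42%) and 780 down (2.66%), and 2278 passed in Cascades trees (7.63%), with 1004 up (3.36%) and 1274 down (4.27%). In Coast trees 4206 passed (14.1%), with 1789 up (6.01%) and 2417 down (8.12%). These counts depended strongly on single trees. Without tree 46 no Oregon feature passed edgeR's test (2033 had an unadjusted p up to 0.05), and the other Oregon counts were 4 without tree 44, 44 without tree 90 and 2382 without tree 89. Cascades counts were 18 without tree 38 and 20 without tree 39, and Coast counts were 841 without tree 68, 1710 without tree 69 and 1982 without tree 12. Estimated from 1 fit of all 24 libraries, which shares the spread, the counts were 4688 (16.0%), 3567 (12.2%) and 4834 (16.5%) for Oregon, Cascades and Coast, so the order of the alone fits did not hold.

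Of 27295 features tested in all 3 seed sources, 297 rose in all 3 and 480 fell in all 3, and 0 were called in opposite directions. Lists made without a seed source were then read in its 4 trees. Of 5092 risers and 5237 fallers called in the Cascades and Coast trees, 63.4% rose and 68.9% fell in all 4 Oregon trees, where 21.0% of all features were higher and 21.7% lower in all 4. In Cascades trees the shares were 77.2% of 4068 risers and 80.4% of 4161 fallers (22.3% and 22.6% of all features), and in Coast trees 81.3% of 3840 risers and 85.3% of 3912 fallers (24.7% and 23.8%).

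In edgeR, no feature's change was called different between seed sources. The test of any difference between the 3 sources called 0 of 29314 features (edgeR adjusted p at most 0.01), with 1918 (6.54%) up to an unadjusted p of 0.05 and a smallest adjusted p of 0.187, whereas DESeq2 called 10. Between pairs of sources 0 features were called as well, with 1980 features under the same unadjusted threshold for Oregon minus Cascades, 2919 for Oregon minus Coast and 710 for Cascades minus Coast. The overall size of the change in held-out trees averaged 0.79 ± 0.11 in Oregon, 0.76 ± 0.08 in Cascades and 0.82 ± 0.11 in Coast trees (SD, n = 4 each), with overlapping trees. None of the 5 comparisons made of this size, which also include flowcell and bud label below, passed a two-sided exact permutation test (p = 0.343 to 0.683, adjusted p = 0.683 each). These tests were chosen after the values had been seen.

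Since 6 trees had their libraries on 2 flowcells, the change was tested for a difference by flowcell pairing. In edgeR 0 features differed, with 797 (2.72%) up to an unadjusted p of 0.05, and DESeq2 also called 0. The 6 trees with both libraries on fc1025 gave 5695 calls alone (19.3%), with 2707 up (9.16%) and 2988 down (10.1%). A fit of all 24 libraries with the flowcell as a covariate beside the tree gave 6077 calls (20.7%). Its date term rests on the same 6 trees, and the other 6 add only to the estimate of spread, so this is not a count for all 12 trees. The 2707 risers and 2988 fallers called in the 6 trees of fc1025 alone were then read in the other 6 trees. There 99.8% of these risers were higher on 6 May in the mean (mean log2 change 0.91) and 99.9% of these fallers were lower (mean log2 change -1.09), where 50.4% of all features were higher. The held-out size of the change averaged 0.81 ± 0.10 in trees with an April library on fc1022 and 0.76 ± 0.09 in trees with both libraries on fc1025 (SD, n = 6 each).

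Bud state was compared in the same way. Between the dates 8 trees passed from pre-budbreak to post-budbreak, while 4 kept their label, 3 of them Oregon trees already post-budbreak in April and 1 the Coast tree 10. The held-out size of the change averaged 0.80 ± 0.09 in the 8 trees that passed budbreak and 0.77 ± 0.11 in the 4 that did not (SD), and the trees overlapped. No feature's change differed at an adjusted p of at most 0.01 in edgeR, with 2747 (9.37%) up to an unadjusted p of 0.05 and a smallest adjusted p of 0.0148, and DESeq2 called 13. With the seed source in the model, 982 features had an unadjusted p up to 0.05. Bud state and seed source are largely confounded, as only 1 Oregon tree passed budbreak and only 1 other tree did not.

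Fewer features were detected in May. At nearly equal totals, features with at least 1 count numbered 44546 at the lowest, 46846 at the median and 47973 at the highest in May libraries, against 48244, 51322 and 55555 in April libraries. Every May library was below every April library. The mean difference was -4835 ± 1616 (SD, n = 12 trees), lower in May in 12 of 12 trees (two-sided exact permutation test exchanging dates within trees, p = 0.000488, the smallest that all exchanges over 12 trees can give). Of the 61348 features outside the test, 17473 were detected per May library and 22226 per April library on average, and of the 29314 tested, 29084 and 29167. The filter for the test used the same libraries and leaves little room for a difference in detection among tested features. The features outside the test held 0.540% of the counts in May and 0.724% in April. Of the 82262 features with at least 1 count, 2446 were detected in at least 6 fewer trees in May and 235 in at least 6 more. The 2446 were rare, with a median of 1.67 in their mean counts, and 6 of them were among the tested features. In all, 9 features were present in all 12 April libraries and in no May library, and 0 the other way round.

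The 50 most abundant features together took a larger share of the counts in May. The 50 most abundant features held 19.9%, 29.8% and 35.2% of the counts in the lowest, median and highest May library, against 15.7%, 20.6% and 28.8% in the lowest, median and highest April library. The dates overlapped, and the share was higher in May in 11 of 12 trees, with a mean difference of 7.02 ± 5.57 percentage points (SD; two-sided exact permutation test, p = 0.00244). Coast trees 69 and 68 gained most (15.7 and 14.3 points), and Oregon tree 89 was the exception with a loss (-3.33 points). Of all 1527 tested features of 100 CPM or more, 38.2% rose and 13.8% fell. Among the 50, the counts were near these shares, with 19 up, 6 down and 25 not called. The most abundant one held 4.05%, 6.37% and 9.13% in its lowest, median and highest May library, against 1.98%, 4.09% and 6.62% in April, a gain of 2.13 points (log2 change 0.95, edgeR adjusted p = 0.00104, higher in 11 trees). The mean share was higher in May in 27 of the 50. The 5 features with the largest gains added 7.55 points, more than the 7.02 points of all 50, so that the other 45 lost on balance. These 5 were ranked by gain in the same libraries, so the size of their sum is set in part by the choice.

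Counts were thus spread over fewer features. The number of features that together held 50% of a library's counts was 249, 426 and 754 at the lowest, median and highest in May, against 366, 745 and 1031 in April, with overlap between the dates. It was lower in May in 11 of 12 trees, with a mean difference of -255 ± 243 features (SD, n = 12; two-sided exact permutation test, p = 0.00537). Tree 89 was again the exception, with 637 features in May and 366 in April. At an equal total outside the 50 most abundant features, the expected number of detected features differed by -3861 ± 1165 between May and April (SD), lower in 12 of 12 trees (exact permutation test, p = 0.000488).

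**Figure D5:**
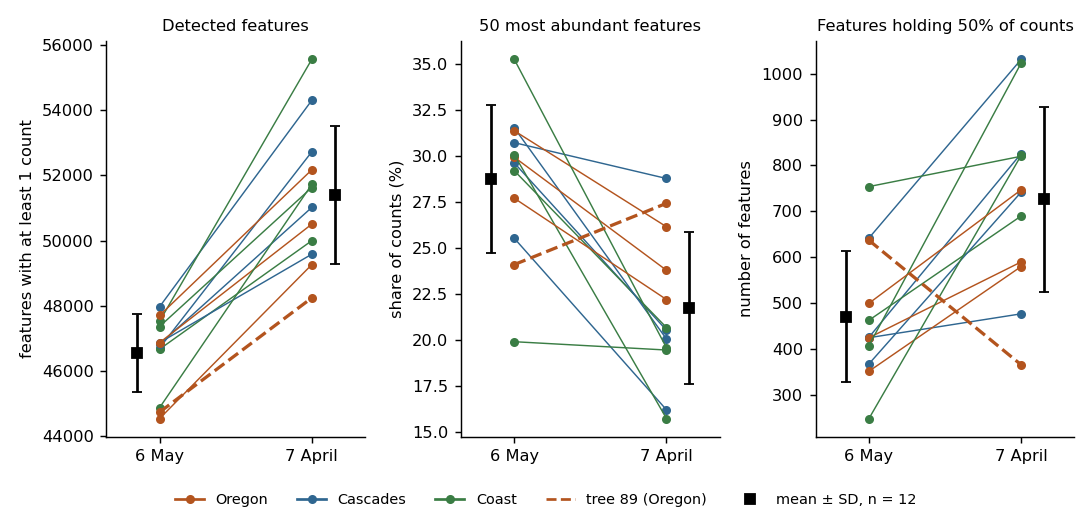
Detected features, percentage of counts in the 50 most abundant features and number of features holding 50% of the counts, for 6 May (left) and 7 April (right) in each panel, with lines joining the libraries of 1 tree, colours for seed sources and black squares for the mean ± SD of 12 libraries (vertical axes do not start at 0). Detected features are lower in May in all 12 trees, and tree 89 (dashed) runs against the other 11 in the other panels.

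The spread between trees was not smaller in May in the median feature, which was not tested. The median standard deviation over trees of a feature's log2 level was 0.50 on 6 May and 0.46 on 7 April, and it was smaller in May for 40.9% of the 29314 features. Among the 11315 features of at least 10 CPM, which are less affected by counting noise, the medians were 0.39 in May and 0.37 in April. The Coast trees had the widest gap in these features, with 0.34 in May and 0.28 in April. In the 6 trees with both libraries on fc1025 the medians were 0.354 in May and 0.350 in April. In the 6 trees with the April library on fc1022 they were 0.391 and 0.355.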

How the data were processed

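The deposited values are whole-number counts per numbered feature, with library totals brought to nearly 1 value by the authors, a step the paper does not describe. The submitters' notes list CASAVA 1.8 and Bowtie2, and which reference and counter made the table is not given in the sources used here. Where the median count exceeded 5, features were fitted in R 4.3.3 with edgeR 4.0.16 (limma 3.58.1), with full library totals, TMM and the tree as a block, at an adjusted p of at most 0.01. CPM use TMM-adjusted totals, and log2 CPM a prior count of 2. The tree numbers in the labels pair the libraries: deviations from the date means of the 2 libraries of a tree correlated with a mean r of 0.594 (0.407 to 0.712, over 0.1 in 12 of 12 trees). No columns were identical (highest correlation between libraries 0.948). Named features were the 2 largest rises and the 2 largest falls among called features that averaged 50 counts or more and had the same sign in all 12 trees. Differences by seed source, flowcell pairing and bud state were interaction terms. Library measures were tested in SciPy 1.17.1 (Python 3.11.15). Alternatives were no block, DESeq2 1.42.0, other scalings, filters and thresholds, the flowcell as a covariate, trees of 1 flowcell, family sums, leaving out the 50 most abundant features and leaving out each tree. Tests were tried on simulated counts. The comparison, lists and tests were chosen with earlier results of these data known, and detection at an equal total outside abundant features and the permutation tests of held-out trees were chosen after values had been seen. The labels date the libraries of tree 38 to April, May and June, while a table of the paper's supplement lists March, April and May. Its June column was therefore not used. Its April and May columns stayed in the test as labelled, and without tree 38 the test called 11188 features. Intervals and p-values cannot reflect the original depth.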

Additional observations from a re-analysis of the deposited data

Results flagged for a closer look

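Among 27 groups of 4 trees of 1 seed source (9 measures of the change between the dates in 3 seed sources), 3 held a tree far from the other 3, judged by its gap to the nearest tree over the whole range. Chance flags about 5% of such groups taken singly. The measures are related, and all 3 flags came from measures of how concentrated the counts were, so they are not independent. The share of counts in the 50 most abundant features changed by -3.33 percentage points in Oregon tree 89, against 5.21 to 6.14 points in the other Oregon trees. The number of features that hold 50% of the counts changed by 271 in the same tree, against -165 to -247 in the other Oregon trees. This number changed by -52 in Cascades tree 38, against -374 to -400 in the other Cascades trees. Both trees had their April library on flowcell fc1022 and had the highest April shares of the 50 most abundant features (27.4% in tree 89 and 28.8% in tree 38). Whether flowcell or tree set these values was not tested.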

How the results depend on the processing

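The tree block mattered for the counts. With no replicate block, 7349 features were called (3331 up, 4018 down), and 52, 24 and 427 in Oregon, Cascades and Coast trees alone. With the flowcell as a covariate, where the date term rests on the 6 trees of 1 flowcell, 6077 were called (2896 up, 3181 down). A fit of these 6 trees alone called 5695 (2707 up, 2988 down). With a log2 change of at least 1, 3572 were called (1279 up, 2293 down). Under the deposited totals 2470 rose and 9024 fell. Leaving out each tree gave 10949 to 12927 calls (5502 to 6573 up, 5371 to 6354 down), and 0 to 2382 in Oregon, 18 to 2280 in Cascades and 841 to 3543 in Coast trees. DESeq2 called 3683 in Oregon and 3994 in Cascades trees, an adjusted p of at most 0.05 gave 5577, 7099 and 9435 in Oregon, Cascades and Coast trees, and the fit of all 24 libraries gave 4688 in Oregon and 3567 in Cascades trees. DESeq2 called 10 features for seed sources and 13 for bud state. At the looser threshold of 0.05, edgeR called 1 for bud state, gene1402, named after its values were seen (edgeR adjusted p = 0.0148, and 0.939 beside seed source). DESeq2 called this feature too, without seed source in the model (DESeq2 adjusted p = 3.83e-09). Without each tree in turn 0 to 1 were called for bud state (1 without tree 44, gene23075) and 0 for seed sources and flowcell pairing. Differences in library measures without each tree were -5028 to -4545 detected features, 6.24 to 7.96 points and -303 to -223 features. Of 242 alternative values, 206 kept their direction, side of the threshold or size within 1.5 times. Many of the 206 set a count of 0 beside 0 or belong to the named features, which were picked for large changes of the same sign in every tree. The tally therefore says little about how firm the results are. The causes of these differences were not tested. Features with a median count of 5 or less were left out of the main test. With no count filter, 15160 features were called (8076 up, 7084 down).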
